A study of Mus musculus with 8 samples.

Results

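The cell cycle and DNA replication genes examined here are 42 mouse genes that drive, carry out or restrain cell division. They were followed in the long bones of Hyp and wild-type (WT) mice. A gene was taken as measured where at least 1 probe set of the array was annotated to that gene symbol alone, and 41 of the 42 met this rule, through 96 of the 45037 probe sets tested. Ccnb1 was not analysed here. Hyp mice lack the 3′ part of Phex, an X-linked gene for a bone cell membrane peptidase. They are labelled as strain C57BL6, came from The Jackson Laboratory, and are a model of X-linked hypophosphatemia, in which renal phosphate loss goes with poorly mineralized bone. The Hyp group comprised 4 arrays of RNA from the tibia and femur of males aged 12 days, and the WT group comprised 4 arrays of the same bones, sex and age. The strain of the WT mice is labelled only as wild type. Each RNA pooled 2 bone samples of 1 genotype, and the labels do not say how many animals these came from, so p-values here reflect only how much these RNA samples vary.

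Division begins when D-type cyclins with Cdk4 release E2F transcription factors from the retinoblastoma protein. E2F factors then switch on cyclin E, the MCM helicase and the enzymes that supply deoxynucleotides, and the chromosomes are copied in S phase. Cyclin A and cyclin B with Cdk1, the Aurora and Polo kinases and the spindle motors take the cell through mitosis, while p21, p27, p57 and p18 (the products of Cdkn1a, Cdkn1b, Cdkn1c and Cdkn2c) hold cyclin-dependent kinases in check. In a growing long bone the dividing cells include columnar chondrocytes of the growth plate, osteoblast and stromal precursors, endothelial cells and the blood-forming precursors of the marrow.

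All values are deposited signals, taken as log2, that are centred: the median of each probe set over the 8 arrays is 0. No level of a gene can be read from them, only how arrays differ, so the presence of the tissue's own markers could not be checked from them. In a probe set whose groups do not overlap, this centring places the lowest array of one group and the highest of the other equally far from 0. The value of a gene is the mean over its probe sets. Over all 18193 genes, 6.54% passed the test as higher in Hyp bone and 6.32% as lower (limma, Benjamini-Hochberg adjusted p under 0.05), and the median difference was 0.025 on the log2 scale. Those shares are counts of 1190 and 1150 genes, which became 879 and 1273 with cyclic loess normalization. Phex, the deleted gene, fell by 8.31 on the log2 scale at 1 probe set and fell by 5.03 at the other (limma adjusted p = 5.22e-08 and 2.15e-06). WT replicate 3 stood apart in skeletal muscle genes, with a mean of 1.71 over 22 markers against values from -0.52 to 0.23 in the other WT arrays and from -1.01 to 0.16 in the Hyp arrays, and none of those markers passed (limma; 3 at an unadjusted p under 0.05).

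Of the 41 measured members 13 rose and 1, Cdkn1a, fell, against 6.54% and 6.32% of all genes. Their median difference was 0.13, against 0.025 over all genes. Those that rose did so by 0.18 to 0.35 on the log2 scale, or 1.13-fold to 1.27-fold. The largest difference was that of Tk1, thymidine kinase, and the smallest adjusted p was that of Ccnb2, cyclin B2. Every Hyp array lay above every WT array for 21 of the 41 members, against 10.3% of all genes, and below every WT array for 1, against 8.89%. In whole bone, fewer cells of a type and less RNA per cell cannot be told apart. The count that rose depended on which array was left out: it was 4 when WT replicate 1 was left out, 6 for Hyp replicate 1 and for WT replicate 4, and 7 for Hyp replicates 3 and 4 singly. It was 9 for WT replicate 2, 10 for Hyp replicate 2 and 18 for WT replicate 3. The share of all genes that rose changed in these fits too, from 3.3% without WT replicate 1 to 7.9% without WT replicate 3.

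**Figure D1:**
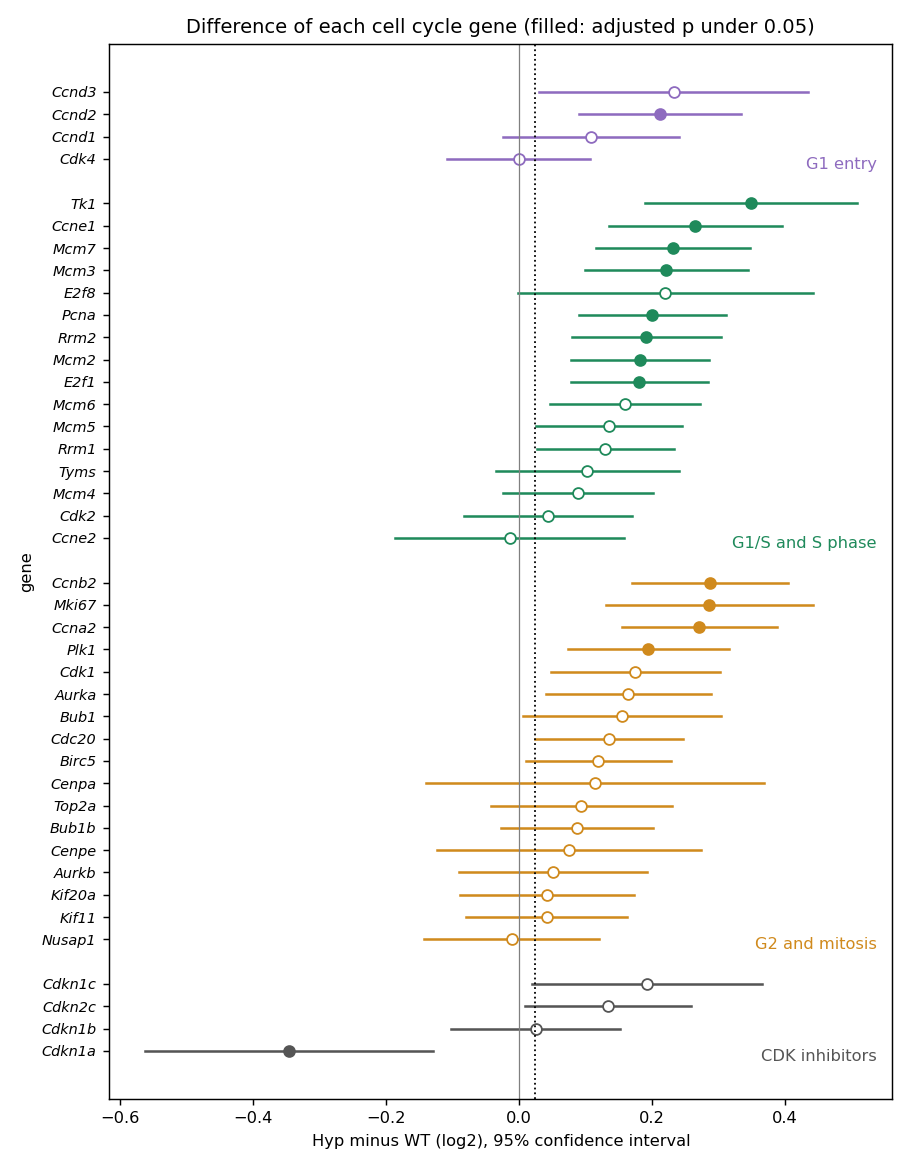
Difference between Hyp and WT bone on the log2 scale (x axis) for each of the 41 measured genes (y axis), grouped by role, with 95% confidence intervals from limma. Filled points passed an adjusted p of 0.05, the dotted line marks the median of all genes at 0.025, and Cdkn1a is the filled point to the left of 0.

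G1 entry was represented by the D-type cyclins and their kinase, of which 1 of 4 rose, against 6.54% of all genes. Ccnd2 (cyclin D2) had values of 0.16, 0.25, 0.09 and 0.05 in Hyp replicates 1 to 4, against -0.05, -0.13, -0.06 and -0.06 in WT replicates 1 to 4. The groups did not overlap, and the difference was 0.21 ± 0.05 (SE, n = 4 per group; limma adjusted p = 0.0295). Its 7 probe sets disagreed, however: 3 rose by 0.35, 0.36 and 0.40, and the lowest lay at -0.09 ± 0.12 (limma adjusted p = 0.718). Ccnd2 missed the threshold when Hyp replicate 1 or 2, or WT replicate 1, 2 or 4, was left out, with a limma adjusted p of at most 0.0744.

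Ccnd3 (cyclin D3) had values of 0.16, 0.22, 0.33 and 0.09 in Hyp bone and -0.10, -0.04, 0.23 and -0.22 in WT bone. Only WT replicate 3 reached into the Hyp range. The gene mean did not pass (0.23 ± 0.09, limma adjusted p = 0.129), but it did so without WT replicate 3 (0.32 ± 0.07, limma adjusted p = 0.0149). Ccnd3 passed in only that 1 of 8 fits with 1 array left out, with a limma adjusted p of up to 0.276. One of its 3 probe sets rose by 0.30 ± 0.06 (limma adjusted p = 0.0154). In that probe set WT replicate 3 lay at -0.07, and in another at 0.93. Ccnd1 (cyclin D1) had values of 0.02, 0.10, 0.03 and 0.02 in Hyp bone and -0.18, -0.12, 0.06 and -0.03 in WT bone. The groups overlapped through WT replicate 3, and the difference was 0.11 ± 0.06 (limma adjusted p = 0.277). Cdk4, the kinase these cyclins activate, had values of 0.01, -0.01, -0.05 and 0.05 in Hyp bone and 0.03, -0.06, 0.05 and -0.01 in WT bone. Its groups overlapped throughout, with a difference of -0.00066, with a 95% confidence interval from -0.11 to 0.11.

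The G1/S and S phase genes held most of the increases, 8 of 16 measured against 6.54% of all genes, with a median difference of 0.18. Their mean over the 16 genes was 0.07, 0.03, 0.07 and 0.14 in Hyp replicates 1 to 4, against -0.13, -0.08, -0.04 and -0.11 in WT replicates 1 to 4. The groups did not overlap in this mean, and 11 of the 16 genes separated them singly, with Hyp above WT, against 10.3% of all genes. Hyp replicate 4 was the highest Hyp array in 10 of the 16, and WT replicate 3 the highest WT array in 9.

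Ccne1 (cyclin E1), which with Cdk2 triggers entry into S phase, had values of 0.13, 0.07, 0.13 and 0.13 in Hyp bone and -0.26, -0.08, -0.04 and -0.23 in WT bone. It rose by 0.27 ± 0.06 (SE; limma adjusted p = 0.0147) and passed whichever single array was left out. Its close relative Ccne2 lay at -0.01 ± 0.08 and Cdk2 at 0.04 ± 0.06, both with overlapping groups (limma adjusted p = 0.93 and 0.673). E2f1, an activating E2F factor, had values of 0.13, 0.04, 0.06 and 0.05 in Hyp bone, against -0.16, -0.07, -0.10 and -0.12 in WT bone. It rose by 0.18 ± 0.05 (limma adjusted p = 0.029), although 1 of its 3 probe sets carried most of this at 0.32 ± 0.07. E2f8, a repressive member of the family, ranged from -0.16 to 0.39 in Hyp bone and from -0.19 to -0.02 in WT bone, and did not pass on the gene mean (0.22 ± 0.10, limma adjusted p = 0.184). One of its probe sets rose by 0.29 ± 0.08 (limma adjusted p = 0.0462).

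The 6 subunits of the MCM helicase, the ring that unwinds DNA at the fork, all had positive differences, and 3 passed on the gene mean. Mcm7 had values of 0.08, 0.03, 0.13 and 0.16 in Hyp bone and -0.17, -0.14, -0.04 and -0.18 in WT bone, a rise of 0.23 ± 0.05 (SE; limma adjusted p = 0.0159). Mcm3 had values of 0.13, 0.05, 0.05 and 0.18 in Hyp bone and -0.08, -0.10, -0.23 and -0.08 in WT bone, a rise of 0.22 ± 0.06 (limma adjusted p = 0.025). In Mcm3, unlike most members, WT replicate 3 was the lowest WT array. Mcm2 had values of 0.06, 0.06, 0.06 and 0.15 in Hyp bone and -0.13, -0.11, -0.04 and -0.10 in WT bone, a rise of 0.18 ± 0.05 (limma adjusted p = 0.0291). Mcm6, Mcm5 and Mcm4 lay at 0.16 ± 0.05, 0.13 ± 0.05 and 0.09 ± 0.05 (limma adjusted p = 0.0679, 0.107 and 0.294).

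The single probe sets of these helicase genes differed from each other. For Mcm5 and Mcm6 the probe set given in full is the one with the largest difference. Which probe set measures its gene best was not tested. One of the 3 probe sets of Mcm5 had values of 0.21, 0.21, 0.09 and 0.20 in Hyp bone and -0.20, -0.18, -0.09 and -0.25 in WT bone. It rose by 0.36 ± 0.06 (SE; limma adjusted p = 0.0065), while the others lay at 0.11 ± 0.07 and -0.07 ± 0.07. Likewise 1 probe set of Mcm6 had values of 0.20, 0.21, 0.06 and 0.23 in Hyp bone, against -0.26, -0.16, -0.06 and -0.27 in WT bone. It rose by 0.36 ± 0.07 (limma adjusted p = 0.0119), while the others lay at 0.06 ± 0.09 and 0.06 ± 0.06. Over all 96 probe sets of the members, 20 rose, or 20.8%, against 3.22% of all probe sets, and 0 fell, against 3.91% (limma; 2 were lower at an unadjusted p under 0.05). Those that rose lay in 16 genes. Of those genes 5 did not pass as a mean: Ccnd3, E2f8, Mcm5, Mcm6 and Rrm1. Pcna and Plk1 passed in the fit of genes but not in the fit of probe sets, each having 1 probe set (limma adjusted p = 0.0673 and 0.0923 among the probe sets).

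**Figure D2:**
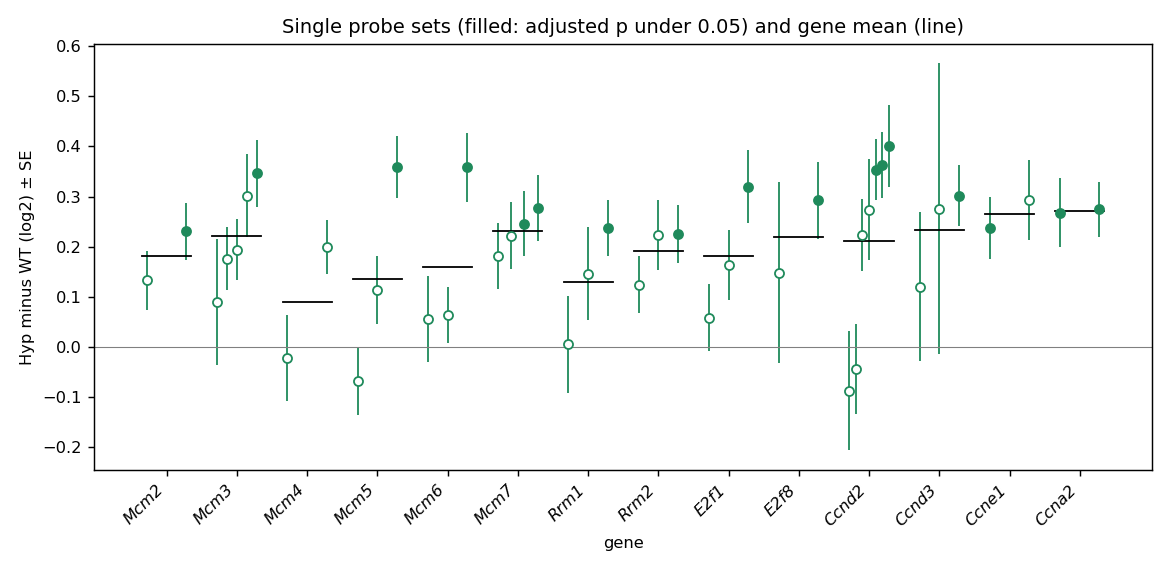
Difference between Hyp and WT bone on the log2 scale (y axis, ± SE) for the single probe sets of 14 cell cycle genes (x axis), with a line at each gene mean. Filled points passed an adjusted p of 0.05. In Mcm5 and Mcm6 1 probe set lay at 0.36 and the others at 0.11 or below.

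The sliding clamp and the nucleotide enzymes followed. Tk1, which salvages thymidine, had values of 0.12, 0.05, 0.26 and 0.22 in Hyp bone and -0.34, -0.20, -0.05 and -0.15 in WT bone. The groups did not overlap, and Tk1 rose by 0.35 ± 0.07 (SE; limma adjusted p = 0.0102), a call kept without any single array. Pcna, the clamp that holds the DNA polymerase to its template, had values of 0.09, 0.04, 0.09 and 0.13 in Hyp bone and -0.19, -0.04, -0.10 and -0.12 in WT bone, and rose by 0.20 ± 0.05 (limma adjusted p = 0.0249). Rrm2, the regulated subunit of ribonucleotide reductase, had values of 0.14, 0.01, 0.12 and 0.12 in Hyp bone and -0.17, -0.05, -0.07 and -0.09 in WT bone, and rose by 0.19 ± 0.05 (limma adjusted p = 0.0323).

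Its partner subunit Rrm1 separated the groups but did not pass on the gene mean (0.13 ± 0.05, limma adjusted p = 0.0981), with 1 of 3 probe sets at 0.24 ± 0.06 (limma adjusted p = 0.03). Tyms (thymidylate synthase) overlapped between the genotypes and lay at 0.10 ± 0.06 (limma adjusted p = 0.323). Its probe sets spread from -0.01 to 0.26. A further probe set, shared with the pseudogene Tyms-ps and so left out by the rule, lay at 0.22 ± 0.07 (limma adjusted p = 0.0828). Several S phase calls were lost in some fits with 1 array fewer. Pcna, Rrm2 and E2f1 were each kept in 3 of 8 fits that left out 1 array, Mcm2 in 1, Mcm3 in 5 and Mcm7 in 7. In these fits the difference was 0.17 to 0.22 for Pcna and for Rrm2, and 0.16 to 0.19 for E2f1.

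**Figure D3:**
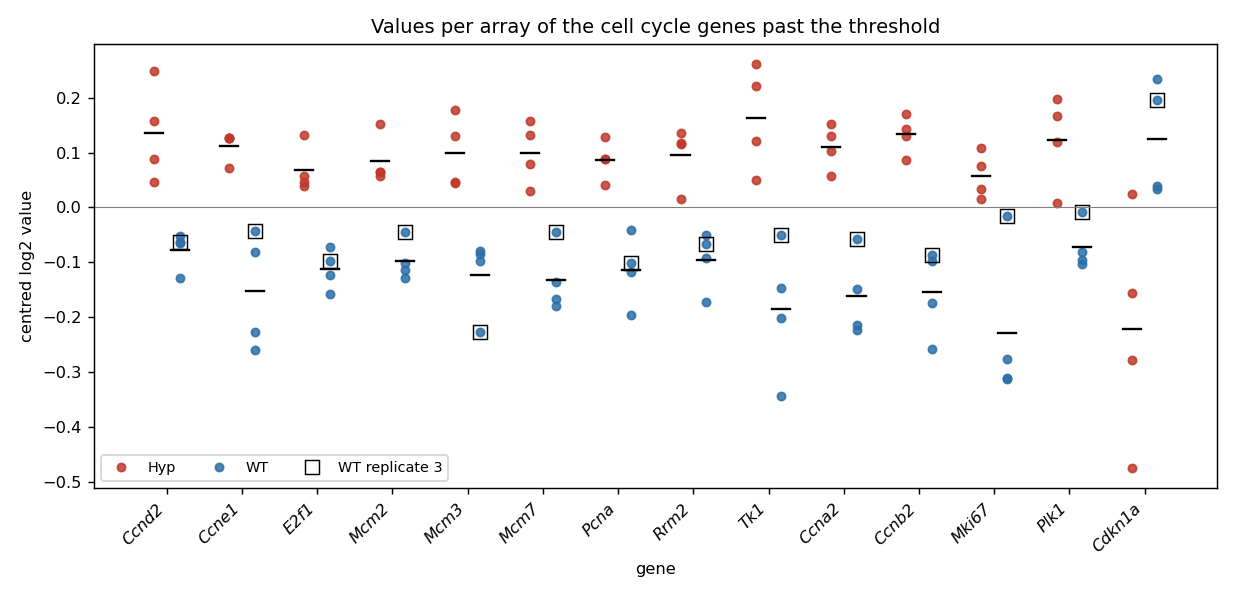
Centred log2 values (y axis) of the 14 cell cycle genes past the threshold (x axis), with 4 Hyp arrays to the left and 4 WT arrays to the right of each gene. Bars mark group means and squares WT replicate 3, which was the WT array nearest to the Hyp arrays in Tk1, Ccna2, Ccnb2, Mki67 and Plk1, among others.

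Fewer of the G2 and mitosis genes passed, 4 of 17 measured against 6.54% of all genes, with a median difference of 0.12. Their mean over the 17 genes was 0.04, 0.08, 0.02 and 0.08 in Hyp replicates 1 to 4, against -0.13, -0.12, 0.02 and -0.09 in WT replicates 1 to 4. The groups did not overlap in this mean, but WT replicate 3, at 0.0203, lay just below Hyp replicate 3, at 0.0210. WT replicate 3 was the highest WT array in 15 of the 17 genes, or 88.2%, whereas it was the highest in 31.3% of all genes. Every Hyp array lay above every WT array for 8 of the 17, and for 11 of them once WT replicate 3 was left out (10.3% and 15.7% of all genes). Whether the share that passed differs between S phase and mitosis genes was not tested. The S phase and mitosis counts, of 16 and 17, depended on the array left out. For Hyp replicates 1 to 4 in turn they were 3 and 3, 7 and 3, 4 and 2, and 3 and 3. For WT replicates 1 to 4 they were 2 and 2, 7 and 2, 9 and 6, and 4 and 2. Of all genes, 3.3% to 7.9% rose in those fits. At a threshold of 0.01 the counts were 0 and 2, with 2.24% of all genes (limma; 11 and 9 at an unadjusted p under 0.05).

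Ccnb2 (cyclin B2), which activates Cdk1 for mitosis, had values of 0.13, 0.09, 0.17 and 0.14 in Hyp bone and -0.26, -0.10, -0.09 and -0.17 in WT bone. The rise was 0.29 ± 0.05 (SE; limma adjusted p = 0.00563). Ccna2 (cyclin A2), needed in S phase and at entry into mitosis, had values of 0.06, 0.15, 0.13 and 0.10 in Hyp bone, against -0.22, -0.15, -0.06 and -0.21 in WT bone. It rose by 0.27 ± 0.05 (limma adjusted p = 0.00772), and both of its probe sets passed. These 2 cyclins were the only members that passed in all 20 alternative fits, among them a threshold of 0.01. Cdk1, their kinase, separated the groups but missed the threshold (0.17 ± 0.06, limma adjusted p = 0.0728), with values of 0.03, 0.05, 0.04 and 0.14 in Hyp bone and -0.24, -0.08, -0.03 and -0.08 in WT bone.

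Mki67, the Ki-67 protein that coats mitotic chromosomes and marks cycling cells, had values of 0.08, 0.03, 0.11 and 0.015 in Hyp bone. In WT bone it had -0.31, -0.31, -0.015 and -0.28, so that WT replicate 3 lay far from the other WT arrays. The rise was 0.29 ± 0.07 (SE; limma adjusted p = 0.0232) and became 0.36 ± 0.05 without WT replicate 3 (limma adjusted p = 0.00149), but Mki67 was kept in only 3 of 8 fits that left out 1 array, with a limma adjusted p of up to 0.0754. Plk1, the Polo kinase of mitotic entry, had values of 0.01, 0.17, 0.12 and 0.20 in Hyp bone and -0.10, -0.08, -0.01 and -0.10 in WT bone. It rose by 0.19 ± 0.05 (limma adjusted p = 0.0411), the least certain of these calls, since it passed in only 6 of 20 alternative fits.

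The remaining mitotic genes did not pass. Aurka, the Aurora kinase of the spindle poles, had 0.09, 0.14, 0.09 and 0.11 in Hyp bone and -0.17, -0.09, 0.06 and -0.03 in WT bone, and lay at 0.16 ± 0.06 with no overlap (limma adjusted p = 0.0837). Without WT replicate 3 it rose by 0.20 ± 0.05 (limma adjusted p = 0.0286). Aurka passed in only that 1 of 8 fits with 1 array left out, with a limma adjusted p of up to 0.217. Aurkb, the Aurora kinase of the centromere, lay at 0.05 ± 0.06. Cdc20, which activates the anaphase-promoting complex, the checkpoint kinase genes Bub1 and Bub1b, and Birc5 (survivin) lay between 0.09 and 0.15. Top2a, the topoisomerase that untangles sister chromatids, lay at 0.09 ± 0.06 at its 3 probe sets together. Cenpa, the centromeric histone, had a value of 0.37 in WT replicate 3, above all Hyp arrays, which reached 0.25, and lay at 0.11 ± 0.11. Without that array Cenpa rose by 0.25 ± 0.06 (limma adjusted p = 0.0335). It passed in only that 1 of 8 fits with 1 array left out, with a limma adjusted p of up to 0.826. In WT replicate 3 its 3 probe sets lay at 0.24, 0.80 and 0.06. The spindle genes Kif11, Kif20a, Cenpe and Nusap1 lay between -0.01 and 0.08, with adjusted p from 0.639 to 0.93. The probe sets of Nusap1 pointed in opposite directions, at 0.16 ± 0.06 and -0.18 ± 0.09, and neither passed.

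The inhibitors of cyclin-dependent kinases split. Cdkn1a (p21), which p53 induces and which arrests cells in G1, had values of -0.47, -0.15, 0.02 and -0.28 in Hyp bone and 0.23, 0.03, 0.20 and 0.04 in WT bone. The groups did not overlap, though Hyp replicate 3 and WT replicate 2 lay close together. Cdkn1a fell by 0.35 ± 0.10 (SE; limma adjusted p = 0.0425), or to 0.787 of the WT signal. Neither of its probe sets passed singly (-0.41 ± 0.11 and -0.28 ± 0.11, limma adjusted p = 0.0515 and 0.156). The call was kept without Hyp replicate 3 (limma adjusted p = 0.0145) and lost when any other array was left out, with an adjusted p of up to 0.122.

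Cdkn1b (p27) had values of -0.05, -0.03, 0.01 and 0.17 in Hyp bone and -0.05, 0.02, -0.01 and 0.04 in WT bone. The groups overlapped, and the difference was 0.03 ± 0.06, with a 95% confidence interval from -0.10 to 0.15. Cdkn1c (p57), an inhibitor of chondrocytes and other cells leaving the cycle, had 0.01, -0.01, 0.03 and 0.14 in Hyp bone and -0.37, -0.16, 0.02 and -0.09 in WT bone. It did not pass (0.19 ± 0.08, limma adjusted p = 0.139), but rose by 0.25 ± 0.07 without WT replicate 3 (limma adjusted p = 0.0471). Cdkn1c passed in only that 1 of 8 fits with 1 array left out, with a limma adjusted p of up to 0.3045. Cdkn2c (p18) had values of 0.05, 0.06, 0.0095 and 0.06 in Hyp bone and -0.23, -0.06, -0.0095 and -0.05 in WT bone. The groups did not overlap, but the difference of 0.13 ± 0.06 did not pass (limma adjusted p = 0.156).

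Because S phase and mitosis genes are known to be driven through different promoter elements, the upstream sequences were searched for the letters of those elements. The promoters came from RefSeq (GRCm38.p6), which gave 300 bases, from 250 before the annotated start to 50 from it, for 33 of the 41 genes. The motifs searched on both strands were CCAAT, bound by NF-Y, TTTGAA, the cell cycle homology region (CHR) bound by DREAM and MuvB complexes, and the E2F site in the forms TTTCCCGC, TTTCGCGC, TTTGCCGC and TTTGGCGC. In the promoters of the members, different motifs overlapped at 1 place. The stretches shown run from 200 bases before the start to the base before it, with the matches in capitals. They are of Ccnb2, Mki67 and Cdk1, which hold CHR matches, and of Mcm6 and Mcm7, which hold E2F matches.
Ccnb2: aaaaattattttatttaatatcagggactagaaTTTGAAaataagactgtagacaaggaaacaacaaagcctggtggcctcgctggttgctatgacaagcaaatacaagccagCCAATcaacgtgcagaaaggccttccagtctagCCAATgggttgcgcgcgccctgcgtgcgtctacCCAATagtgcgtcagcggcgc
Mki67: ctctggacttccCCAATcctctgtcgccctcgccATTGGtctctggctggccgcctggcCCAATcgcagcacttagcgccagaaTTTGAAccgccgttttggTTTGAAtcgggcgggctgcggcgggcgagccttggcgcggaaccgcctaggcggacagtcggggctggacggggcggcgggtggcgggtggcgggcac
Cdk1: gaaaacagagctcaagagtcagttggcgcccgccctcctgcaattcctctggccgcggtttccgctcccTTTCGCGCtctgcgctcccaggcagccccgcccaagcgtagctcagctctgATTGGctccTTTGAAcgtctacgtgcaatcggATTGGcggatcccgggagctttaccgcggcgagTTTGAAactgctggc
Mcm6: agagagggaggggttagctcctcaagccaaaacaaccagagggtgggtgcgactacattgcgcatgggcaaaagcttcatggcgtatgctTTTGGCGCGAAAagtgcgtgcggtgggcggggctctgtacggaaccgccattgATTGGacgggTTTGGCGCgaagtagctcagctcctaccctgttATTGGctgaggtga
Mcm7: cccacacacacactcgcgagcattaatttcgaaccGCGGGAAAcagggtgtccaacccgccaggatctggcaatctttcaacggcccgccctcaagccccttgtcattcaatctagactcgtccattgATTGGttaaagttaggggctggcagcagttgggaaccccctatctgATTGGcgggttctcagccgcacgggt

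These stretches lie on the minus strand at chr9:70421555-70421754 for Ccnb2, chr7:135716380-135716579 for Mki67, chr10:69352913-69353112 for Cdk1, chr1:128359706-128359905 for Mcm6 and chr5:138171884-138172083 for Mcm7. The Ccnb2 promoter holds 3 CCAAT matches and a CHR match upstream of the start, and a further CHR match lies within the 50 bases after it. In the Mki67 promoter 2 CHR matches follow 3 CCAAT matches, and in that of Mcm6 an E2F match on both strands is followed by a single one between its CCAAT matches.

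E2F matches were found in 4 of 5 MCM genes with a promoter in the table (Mcm3, Mcm5, Mcm6 and Mcm7) and in 5 of 14 G1/S and S phase genes, against 2.6% of 27025 genes. CHR matches were found in 10 of 14 G2 and mitosis genes and in 2 of 14 G1/S and S phase genes, against 20.2% of all genes. CCAAT was found in 12 of 14 and in 10 of 14, against 41.1%. The 300 bases of Tk1, Ccne1 and E2f1, which rose, and those of Cdkn1a, which fell, held none of the searched letters. Genes that rose and genes that did not pass were much alike in these letters: CHR matches were found in 4 of 11 and in 8 of 21, and E2F matches in 2 of 11 and in 4 of 21. A match is a run of letters and does not show that a factor binds there.

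**Figure D4:**
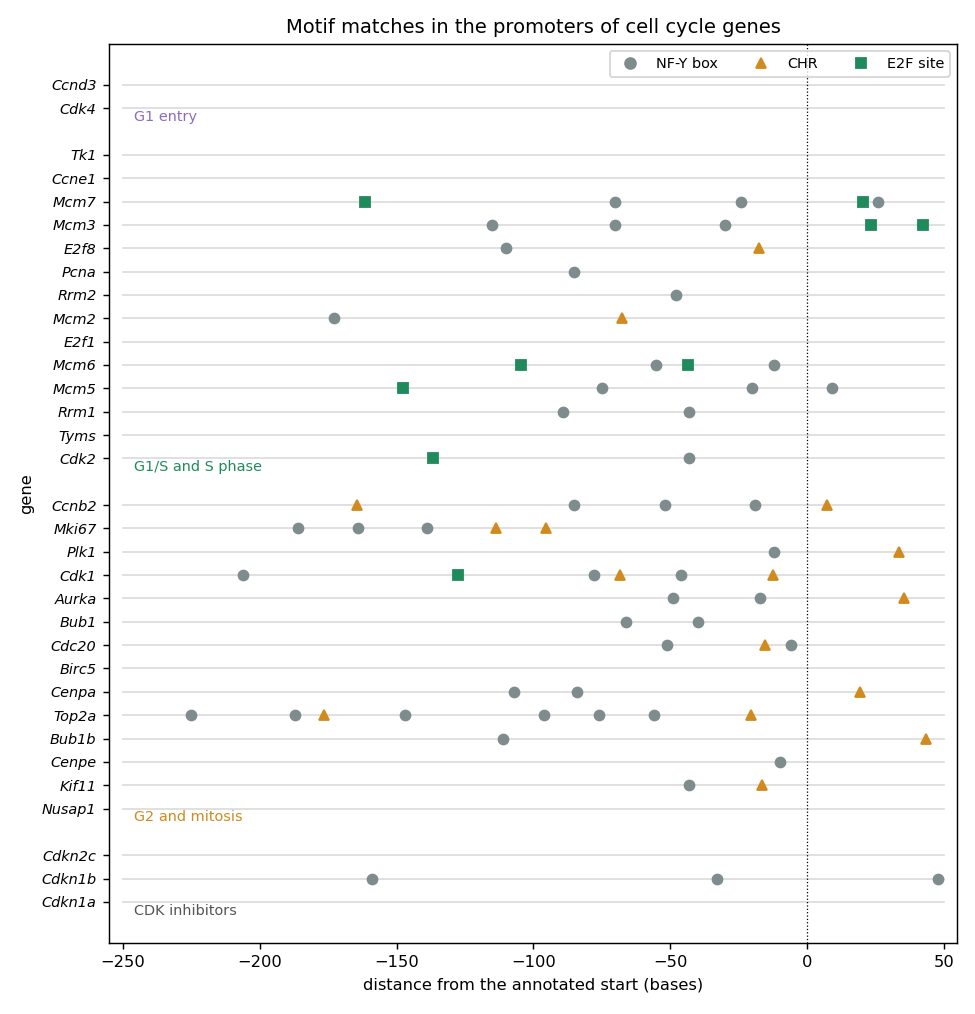
Position of motif matches along the promoters of 33 cell cycle genes, as distance from the annotated start in bases (x axis), with genes by role and by falling difference between Hyp and WT bone (y axis). The first promoter entry of each gene is drawn. Triangles (CHR) lie in 10 of 14 G2 and mitosis genes and squares (E2F) in 4 MCM genes, Cdk2 and Cdk1, and circles are the NF-Y box.

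Other replication and mitosis genes had positive medians, and the share that passed is to be read against the 6.54% of all genes that rose. Of 20 measured genes of origin licensing and firing 2, or 10%, rose, with a median of 0.12: Gmnn (geminin, which blocks relicensing) by 0.21 ± 0.05 (SE; limma adjusted p = 0.0233) and Orc1, of the origin recognition complex, by 0.27 ± 0.08 (limma adjusted p = 0.0473). Of 24 polymerase and fork genes 6, or 25%, rose, with a median of 0.11, but 3 did so with quantile normalization and 1 with cyclic loess, under which 4.83% of all genes rose. Fen1, the flap endonuclease that trims Okazaki fragments, had values of 0.19, 0.08, 0.14 and 0.20 in Hyp bone and -0.20, -0.12, -0.12 and -0.20 in WT bone. It rose by 0.32 ± 0.05 (limma adjusted p = 0.0022). Lig1, the ligase that seals those fragments, rose by 0.36 ± 0.07 (limma adjusted p = 0.0094), and Rpa1, which coats single-stranded DNA, and the histone chaperone Asf1b rose by 0.24 ± 0.06 and 0.19 ± 0.05.

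Among 25 kinetochore and checkpoint genes 1, or 4%, rose, a share below that of all genes. It was Cenpt, by 0.25 ± 0.07 (SE; limma adjusted p = 0.0447), with a list median of 0.09. Of 25 genes of spindle motors, cytokinesis and condensation 3, or 12%, rose, with a median of 0.09: Kif4 by 0.20 ± 0.05, Ncaph of the condensin complex by 0.20 ± 0.05 and Tpx2, an activator of Aurora A, by 0.17 ± 0.05. Regulators of the E2F, Rb and DREAM group had a median of 0.03, close to that of all genes, with 2 of 17 higher: E2f4, a repressive E2F, by 0.34 ± 0.08 and Mybl2 (B-Myb), which works with MuvB at mitotic promoters, by 0.32 ± 0.09. With cyclic loess, 1 gene of origin licensing, 0 of the kinetochore, 0 of motors and condensation and 1 of the E2F group rose (limma; 5 kinetochore and 4 motor genes were higher at an unadjusted p under 0.05). When each array was left out in turn, the number higher was 0 to 4 for origin licensing, 2 to 6 for the fork, 0 to 4 for the kinetochore, 0 to 6 for motors and condensation and 0 to 4 for the E2F group, and in each list the largest number was that without WT replicate 3. Where 0 passed, 3 to 9 genes of the list were higher at an unadjusted p under 0.05 (limma). Of all genes, 3.3% to 7.9% rose in the fits with 1 array left out.

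Of 18 other cyclins, kinases and CDC25 genes 3 fell and 0 rose (limma, with 4 higher at an unadjusted p under 0.05), against 6.32% and 6.54% of all genes. The list median was 0.05, and 12 of the 18 differences were positive. Ccng1 (cyclin G1, a p53 target) fell by 0.26 ± 0.05 (SE, limma adjusted p = 0.00878). Skp2, the ubiquitin ligase subunit that destroys p27, fell by 0.28 ± 0.06 (limma adjusted p = 0.0153). Cdk7, of the kinase that activates other CDKs, fell by 0.26 ± 0.07 (limma adjusted p = 0.0284). Of 12 measured other CDK inhibitors and p53 targets 4, or 33.3%, rose and 0 fell, against the same shares of all genes (limma, with 1 lower at an unadjusted p under 0.05). The list median was 0.01. Cdkn2b (p15), an inhibitor of Cdk4 and Cdk6, had values of 0.12, 0.27, 0.10 and 0.22 in Hyp bone and -0.12, -0.42, -0.22 and -0.10 in WT bone, and rose by 0.39 ± 0.08 (limma adjusted p = 0.00795). The p53 targets that passed split. Gadd45a rose by 0.30 ± 0.07, and Phlda3 and Plk2 by 0.20 ± 0.04 and 0.21 ± 0.06, while Cdkn1a and Ccng1, of other lists, fell. Cdkn1a passed in only 1 of 8 fits with 1 array left out. Without WT replicate 3 the list of other cyclins and kinases held 5 genes that rose beside 3 that fell, and without WT replicate 1 it held 1 that fell.

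Several lists of markers of cell types that could hold dividing cells moved with the genotype too. The counts of each list are to be read against the 6.54% of all genes that rose and the 6.32% that fell. Of 17 measured erythroid markers 13 rose, with a median of 0.30, and their mean was 0.13, 0.00, 0.19 and 0.15 in Hyp replicates 1 to 4, against -0.31, -0.15, -0.11 and -0.20 in WT replicates 1 to 4. Alas2 and Klf1, of haem synthesis and red cell gene control, rose by 0.48 ± 0.07 and 0.49 ± 0.07 (SE; limma adjusted p = 0.00125 and 0.00135). The erythroid count was 7 to 13 when each array was left out in turn, with 7 for Hyp replicate 3 and for WT replicate 1 and 8 for Hyp replicate 1.

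Of 20 monocyte and macrophage markers 16 rose, with a median of 0.52 and means from 0.15 to 0.37 in Hyp bone and from -0.31 to -0.20 in WT bone. F13a1 rose by 1.08 ± 0.08 (SE) and Adgre1 by 0.94 ± 0.08. Endothelial markers rose in 15 of 18 (median 0.40), with means from 0.09 to 0.28 in Hyp bone and from -0.33 to -0.12 in WT bone. Plvap rose by 0.59 ± 0.06 and Eng by 0.51 ± 0.05. Mast cell and eosinophil markers rose in 10 of 14, with means from 0.12 to 0.51 in Hyp bone and from -0.27 to -0.17 in WT bone. Epx and Prg2, proteins of eosinophil granules, rose by 0.95 ± 0.08 and 0.66 ± 0.08.

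Osteoblast markers fell in 12 of 15 and rose in 2, with means from -0.31 to -0.13 in Hyp bone and from 0.17 to 0.30 in WT bone. Tmem119 and Ifitm5 fell by 0.75 ± 0.06 and fell by 1.22 ± 0.09 (SE). Growth plate chondrocyte markers rose in 6 of 20 and fell in 2, with a median of 0.22 and overlapping means from -0.01 to 0.29 in Hyp bone and from -0.27 to 0.08 in WT bone. Col10a1, the collagen of hypertrophic chondrocytes, and Col2a1, the main cartilage collagen, both chosen after their values were seen, rose by 2.57 ± 0.28 and 0.78 ± 0.16 (limma adjusted p = 0.000227 and 0.00888), while Col11a1 and Col11a2, of minor cartilage collagen, fell by 0.78 ± 0.06 and fell by 1.01 ± 0.10. The number that rose was 3 when Hyp replicate 2, Hyp replicate 3 or WT replicate 1 was left out, and 7 for Hyp replicate 4 or WT replicate 4. B lineage markers fell in 3 of 19 and rose in 1, with means from -0.29 to 0.13 in Hyp bone and from -0.07 to 0.16 in WT bone. Dntt, of early B cells, fell by 0.56 ± 0.09 and Bank1, of later ones, rose by 0.34 ± 0.07.

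In the marker lists that follow, 6.7% to 25% of the genes rose. Neutrophil markers rose in 2 of 17, or 11.8%, against 6.54% of all genes, with a list median of 0.09. They were Csf3r and Padi4, by 0.29 ± 0.06 and 0.33 ± 0.08 (SE). Markers of T and NK cells had a list median of 0.19. They rose in 4 of 16, or 25%, among them Cd4 and Ccl5 by 0.26 ± 0.06 and 0.24 ± 0.07. That count was 1 with median centring, quantile or cyclic loess normalization, and also when Hyp replicate 1, WT replicate 1 or WT replicate 4 was left out, and 2 without Hyp replicate 2, 3 or 4 or WT replicate 2. Megakaryocytes gave 1 of 10 higher, Nfe2 by 0.33 ± 0.08, with a list median of -0.05. Stem and progenitor cells gave 3 of 12 higher, among them Cd34 and Gata2 by 0.30 ± 0.07 and 0.27 ± 0.06, with a list median of 0.08. Among 15 osteoclast markers, with a list median of -0.03, Car2 rose by 0.26 ± 0.05 and Dcstamp fell by 0.33 ± 0.08. The part of any of these cell types in the differences of the cell cycle genes was not tested.

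**Figure D5:**
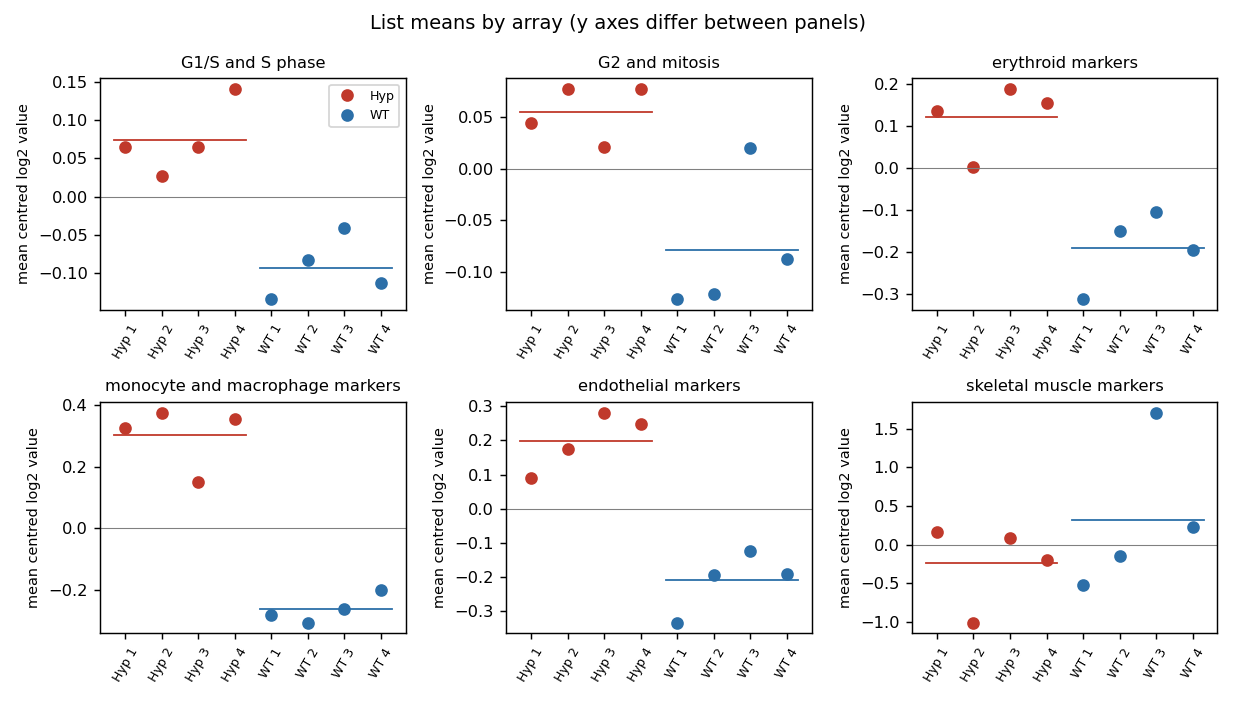
Mean centred log2 value (y axis, scaled separately in each panel) of S phase genes, mitosis genes and 4 marker lists in each array (x axis), with lines at the group means. Hyp and WT arrays do not overlap for S phase, mitosis, erythroid, macrophage and endothelial genes. For mitosis genes WT replicate 3, at 0.0203, lies just below Hyp replicate 3, at 0.0210, and for skeletal muscle markers it lies at 1.71.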

How the data were processed

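Total RNA of 8 pools, each of 2 bone samples, was labelled with biotin and hybridised to 3′ expression arrays, per the labels. The deposited log2 values were made with RMA, per the submitters' processing notes (its version is not stated there). The median of every probe set over the arrays was 0 within 5e-07, so the deposited values are centred, which is unrecorded in the labels. The widest probe set spanned 8.92 units, and base 2 was assumed. Precision depends on the number of arrays, with a median SE of 0.065 over genes.

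After 64 controls were left out, 45037 probe sets remained, of which 34945 had 1 symbol in the platform annotation, 932 several and 9160 none here. A RefSeq table (GRCm38.p6) gave current symbols by gene identifier for 34741. The contrast was Hyp minus WT, fitted by limma 3.58.1 under R 4.3.3 (lmFit, eBayes, no covariate, two-sided, Benjamini-Hochberg over all 18193 genes or all 45037 probe sets, threshold 0.05). Lists are described by counts and medians, with no set test. The procedure was tested on simulated data.

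The members, lists and tests were chosen with earlier results of these data known. Members past the threshold, G1 genes and inhibitors are given in full, the other members by value or range, and up to 4 genes of each cell cycle list and 2 of each marker list by smallest p. Correlations of same-numbered samples (0.15, -0.04, 0.26 and 0.18) do not show that replicate numbers pair them. Alternatives were the replicate block, 3 normalizations, array weights, a robust prior, other thresholds, other choices of probe sets, an SD filter and leaving out arrays. A filter on level needs levels and was not run.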

Additional observations from a re-analysis of the deposited data

Results flagged for a closer look

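In 23 of 220 groups of 4 arrays examined, 1 array lay apart from the other 3 by Dixon's criterion, which chance alone gives in about 1 in 20 groups. WT replicate 3 lay above the other WT arrays in Cdk2 (0.13), Mki67 (-0.015), Cenpa (0.37) and Kif4 (-0.027) and below them in Mcm3 (-0.23). It also lay above them in the list means of G1 entry (0.0705), kinetochore and checkpoint (0.042), E2F, Rb and DREAM (0.014) and other cyclins and kinases (0.052). Hyp replicate 4 lay above the other Hyp arrays in Mcm2 (0.15), Cdk1 (0.14) and the list means of origin licensing (0.10) and of E2F, Rb and DREAM regulators (0.068). Hyp replicate 2 lay apart in Ccnd1 (0.10), Ccne1 (0.072) and Rrm2 (0.015), Hyp replicate 3 in Cdkn2c (0.0095), and Hyp replicate 1 in Cdk7 (-0.20) and Plvap (0.19). Among the other WT arrays, replicate 2 lay apart in Ccnd2 (-0.13) and E2f8 (-0.0197), replicate 4 in Kif11 (0.045) and replicate 1 in Cd34 (-0.26). These are centred log2 values, and their cause was not tested.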

How the results depend on the processing

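With 1 array fewer, the genes higher numbered 605 to 1437 and those lower 805 to 1153, the probe sets higher 625 to 2125 and those lower 1055 to 1975, the members higher 4 to 18 and those lower 0 to 1 (in each of these fits 1 member was lower at an unadjusted p under 0.05, limma). S phase members higher numbered 2 to 9 and mitosis members higher 2 to 6. At a threshold of 0.01 there were 407 genes higher and 618 lower, 458 probe sets higher and 844 lower, and 2 members higher, both of mitosis, with 0 of S phase and 0 members lower, and at 0.1 1891 genes and 2714 probe sets higher (limma; at an unadjusted p under 0.05, 11 S phase members were higher and 1 member lower). Array weights gave 2206 probe sets higher. The SD filter, which left 31 members, gave 8 members higher, 4 of S phase. The numbers in the titles were not shown to pair the samples, and the replicate block gave 8 members higher, 4 of S phase, and 0 lower. With WT replicate 3 and Hyp replicate 2 omitted together 0 were lower too, and cyclic loess gave 2 mitosis members higher. Cdk4 changed sign to 0.0099 with array weights and to 0.0201 with that pair of arrays omitted. With single arrays left out it ranged from -0.023 to 0.016, at 0.003 and 0.015 for Hyp replicates 2 and 3 and 0.0096 and 0.016 for WT replicates 1 and 3. Cdkn1b ranged from -0.022 (Hyp replicate 4 left out) to 0.0497. All 13 members that rose and Cdkn1a kept their direction in every alternative that measured them. The cause of these changes was not tested.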
